A study of Mus musculus with 49 samples.

Results

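The genes described here are 50 mouse genes of mitosis and of the G2/M transition, chosen by name for what they are known to do, out of 46078 gene identifiers in the count tables. Each of the 50 symbols matched a single identifier. The cyclins, Cdk1 and its activators are Cdk1, Ccna2, Ccnb1, Ccnb2, Cdc25b and Cdc25c, and the mitotic kinases are Plk1, Aurka, Nek2 and Melk. The spindle checkpoint and its target, the anaphase-promoting complex, are represented by Bub1, Bub1b, Bub3, Ttk, Cdc20 and Ube2c. Kinetochore and centromere proteins are Cenpa, Cenpe, Cenpf, Ndc80 and Nuf2, and the chromosomal passenger complex is Aurkb, Birc5 and Cdca8. The motor proteins are Kif11, Kif23, Kif2c, Kif20a, Kif20b, Kif4, Kif18a and Kifc1, and the spindle proteins are Tpx2, Nusap1, Prc1, Hmmr, Dlgap5, Tacc3 and Gtse1. Anln, Ect2 and Racgap1 act in cytokinesis, Mki67, Top2a, Smc2, Smc4, Ncapd2 and Cdca2 act on chromosome structure, and Foxm1 and Cdca3 are a transcription factor of G2/M genes and a ubiquitin ligase adaptor.

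A cell that leaves quiescence first makes the proteins that copy its DNA, and later, in G2, those that condense the chromosomes, build the spindle and divide the cytoplasm. Many genes of this second wave are held silent in quiescent cells by the DREAM complex and are turned on by B-Myb, the MuvB core and Foxm1, through a CHR element (TTTGAA) that often lies downstream of a CCAAT box. Hepatocytes of the adult liver are mostly quiescent and can return to the cell cycle after injury or in culture.

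RNA was measured in bulk, with unique molecular identifiers (UMIs), in 49 libraries of 16 groups from wild-type C57BL/6J mice. Freshly isolated hepatocytes (FHs, n = 3) came from adult mice of 10 weeks, and the same kind of cells was grown as a monolayer with 20 ng/mL epidermal growth factor for 3 h, 1, 2, 4, 7 or 14 days (n = 3 each). Cells grown for 7 days were also treated with verteporfin, an inhibitor of Yap, at 0.3 µM or with its solvent DMSO (n = 2 each). DediHeps (n = 5) are the dedifferentiated hepatocytes that are maintained and expanded from such monolayers. They were measured as a monolayer, as aggregates in ultra-low attachment wells (n = 3), and as spherical organoids in Matrigel (dediHep-SOs, n = 3). Budding organoids (dediHep-BOs, n = 3) were dediHep-derived organoids that had received Cdx2, an intestinal transcription factor, by retrovirus. Spherical organoids of fetal intestinal progenitor cells from embryos of 13.5 days (FIPC-SOs, n = 3) and budding organoids of intestinal stem cells from adult crypts of 10-week-old mice (ISC-BOs, n = 4) were the intestinal counterparts. CLiPs (n = 3) are hepatocyte-derived progenitors made with small-molecule inhibitors. All groups shared the wild-type background, and all but the FHs were cultured.

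Library totals ran from 861047 to 3872936 UMI counts, so that 3 counts, taken as the floor, corresponded to 0.671 to 3.91 CPM (counts relative to the library size, corrected by the trimmed mean of M values, TMM). In bulk libraries fewer cells of a type and less RNA per cell cannot be told apart, so a lower level of a mitotic gene can be fewer dividing cells or less RNA in each. The summed level of hepatocyte markers was 22618 to 30134 CPM in FHs, 1188 to 5027 CPM in dediHeps and 112 to 141 CPM in dediHep-SOs, and that of intestinal epithelium markers was 3648 to 4539 CPM in dediHep-BOs and 4214 to 5178 CPM in ISC-BOs. Some libraries stood apart from their group in the genes described here. DediHep replicate 3 had the highest level of its group in 47 of the 50 genes, with a sum of 6275 CPM against 1350 to 2540 CPM in the other 4 libraries, and CLiP replicate 1 had the lowest of its group in 49 of the 50, with 314 CPM against 892 and 1848 CPM. Counts of called genes that rest on these libraries are given with and without them, while group means and median fold changes include them. FHs also carried RNA of other liver cells, with leukocyte markers at a sum of 82.8 to 278 CPM, against 4.07 to 16.04 CPM after 3 h of culture.

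Promoter sequence was looked at first, since many genes of this kind are known to carry a CCAAT box and a CHR element. RefSeq promoters of GRCm38.p6, from 250 bases before to 50 bases after the start site, were at hand for 41 of the 50 genes and for 27025 genes in all. There was none for Tpx2, Aurkb, Cdca2, Cdc25c, Ccna2, Smc4, Dlgap5, Foxm1 and Kif20a. The letters TTTGAA, on either strand, stood in 70.7% of the 41 promoters (29) and in 20.2% of all promoters, and CCAAT, on either strand, in 75.6% (31) and 41.1%. A CCAAT on either strand with TTTGAA, also on either strand, starting 25 to 40 bases downstream of it was found in 34.1% of the 41 (14 genes) and in 0.729% of all promoters. That spacing was chosen after the distances had been seen, so these shares are a description. The 14 genes were Bub3, Ccnb2, Cdc20, Cdca3, Cdk1, Ect2, Hmmr, Kif11, Mki67, Ncapd2, Prc1, Top2a, Ttk and Ube2c. Neither TTTGAA nor CCAAT stood in the promoters of Birc5, Kif18a, Melk, Nuf2, Nusap1 and Tacc3. The stretches below show the arrangement in 6 genes whose levels are followed in the results and in Bub3, which has the same pair of letters and yet, as described further on, a level unlike the others. Capitals mark CCAAT or its reverse complement ATTGG, and TTTGAA or its reverse complement TTCAAA, each sequence being written 5′ to 3′ along the gene.
Cdk1: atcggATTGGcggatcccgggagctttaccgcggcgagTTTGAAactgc
Cdc20: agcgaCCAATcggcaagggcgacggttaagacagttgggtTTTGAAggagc
Ube2c: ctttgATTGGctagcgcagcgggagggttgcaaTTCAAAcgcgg
Top2a: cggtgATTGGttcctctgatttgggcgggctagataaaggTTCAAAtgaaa
Kif11: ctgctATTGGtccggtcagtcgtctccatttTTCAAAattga
Mki67: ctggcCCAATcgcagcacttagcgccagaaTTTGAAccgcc
Bub3: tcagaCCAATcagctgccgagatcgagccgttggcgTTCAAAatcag
These stretches lie at chr10:69352917-69352965 (minus strand) for Cdk1, chr4:118437351-118437401 (minus) for Cdc20, chr2:164769867-164769910 (plus) for Ube2c and chr11:99024202-99024252 (minus) for Top2a. Those of Kif11, Mki67 and Bub3 are chr19:37376332-37376373 (plus), chr7:135716485-135716525 (minus) and chr7:131560291-131560337 (plus). The first letter of TTTGAA followed the first letter of CCAAT by 33, 35, 28, 35, 26, 25 and 31 bases, in the order printed. No test of a factor's binding was part of these data.

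The level of the 50 genes together was low in FHs, at 3 h and at 1 day, high in monolayers from 2 days on and in dediHeps, low again in aggregates, and high in every kind of organoid. Their summed CPM was 144 ± 57.1 (SD, n = 3) in FHs, 185 ± 26.2 at 3 h and 209 ± 61.3 at 1 day. Bub3 held much of these low sums, and without it they were 107 ± 59.2, 101 ± 37.4 and 120.3 ± 30.3 CPM, with no order among the 3 groups beyond their spread. With all 50 genes the sum was 2155 ± 1093 at 2 days, 3358 ± 540 at 4 days, 1762 ± 357 at 7 days and 2082 ± 194 at 14 days (n = 3 each). These sums show the step between 1 and 2 days, with no library of 2 days or later in the time course under 1273 CPM and none before it over 279 CPM. DediHeps had 2899 ± 1939 (n = 5), aggregates 256 ± 144 (n = 3; 157 ± 128 without Bub3), and CLiPs 1018 ± 775 (n = 3). DediHep-SOs had 3361 ± 304, dediHep-BOs 5124 ± 567, FIPC-SOs 5617 ± 655 (n = 3 each) and ISC-BOs 5469 ± 395 (n = 4). Aggregates were thus the one kind of dediHep-derived culture near the level of cells kept for 1 day or less.

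**Figure D1:**
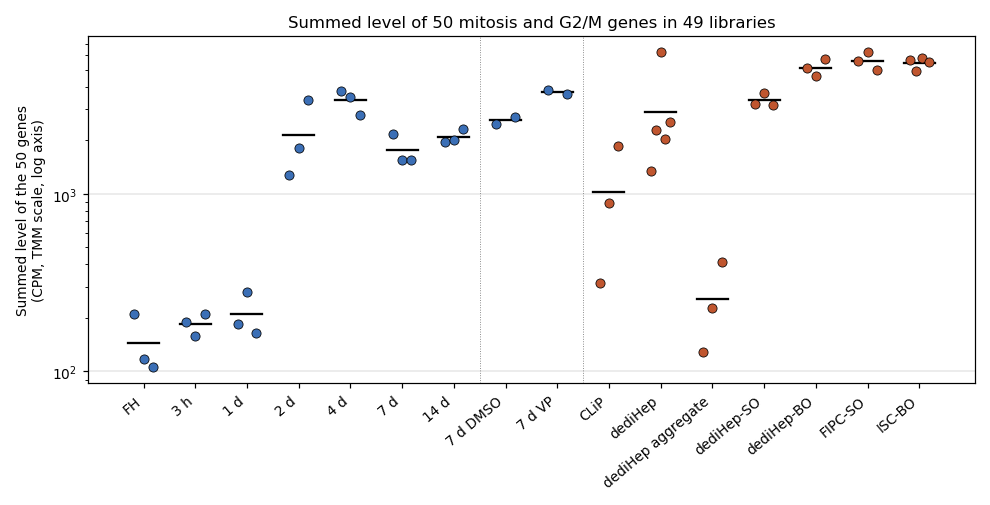
Summed level of the 50 genes (CPM, logarithmic axis) in each of the 49 libraries, by group, with a bar at the group mean. Time-course, verteporfin and DMSO libraries are blue and all others orange, and the 3 aggregates lie between 129 and 412 CPM while the 5 dediHep libraries lie between 1350 and 6275 CPM.

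Within the time course, 44 of the 50 genes had their highest mean at 4 days. Kif23, Racgap1, Top2a and Cdca2 had it at 14 days and Bub3 and Gtse1 at 7 days. Over all 16 groups, 25 genes were highest in FIPC-SOs, 10 in ISC-BOs and 9 in dediHep-BOs. Prc1 and Dlgap5 were highest at 4 days, Cdk1 with verteporfin, Anln with DMSO, Gtse1 in dediHeps and Racgap1 in dediHep-SOs. Intestinal organoids or their Cdx2-expressing counterparts thus held the highest mean of 44 genes.

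**Figure D2:**
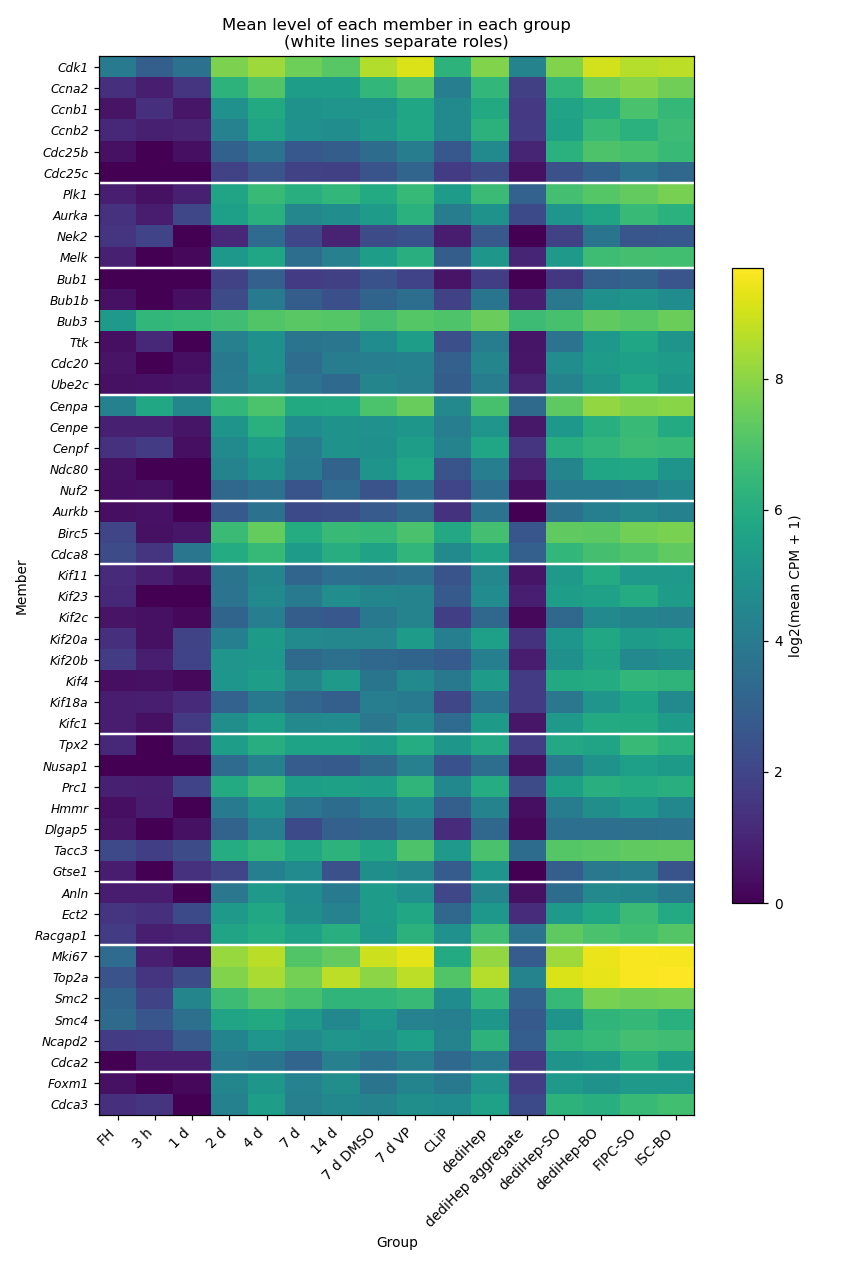
Heat map of log2(mean CPM + 1) of each of the 50 genes (lines, ordered by role) in each of the 16 groups (columns). Levels are low from FHs to 1 day and in aggregates for nearly every gene, and Bub3 keeps a visible level in those groups, with 84.3 to 116 CPM in aggregates.

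The genes kept nearly the same pattern as one another. Over the 16 group means, the log2 level of most genes followed the mean of the others closely, and the 5 least alike were Nek2 (Pearson r = 0.70), Bub3 (0.77), Gtse1 (0.80), Cenpa (0.87) and Kif20b (0.90). Among 12742 genes outside the list with at least 10 CPM in some group, 130 had r over 0.9 with the mean profile. The 10 most alike were Sgo1, Aspm, Knstrn, Pbk, Cenpi, Pclaf, Cip2a, Ckap2l, Kif14 and Parpbp, with r from 0.981 to 0.986 over 16 groups. Of these 10, 7 belonged to a list of 69 other mitotic genes, which was chosen with earlier results of these data known. This count has no share of the 12742 genes beside it. All of these correlations share libraries and depth and are given as a description.

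Which of these genes moved in the first hours of culture was the first question of the time course. Differences between groups were tested with edgeR's quasi-likelihood test over all genes, and a gene is said to have risen or fallen, or to be called, at a false discovery rate (FDR) under 0.1 with an absolute log2 fold change over 2. Only 1 gene was called at 3 h against FHs, Mki67, a coat protein of mitotic chromosomes, out of 47 tested, where 3.85% of all genes tested fell. Mki67 measured 16.3, 7.82 and 3.99 CPM in FHs and 1.20, 0 and 1.07 CPM at 3 h (log2 fold change −3.57, SE 1.08, edgeR FDR 0.0359). From 25 counts in FHs to 2 at 3 h it was 12.8-fold lower, with a counting interval of 3.19 to 112. The FH libraries lay above all of the 3 h libraries. Bub3, a checkpoint protein, and Cenpa, the centromeric histone, were higher at FDR under 0.1 without passing the fold threshold (log2 1.19 and 1.57), and Smc2, a condensin subunit, was lower (log2 −1.39, SE 0.52, FDR 0.0828). The median log2 fold change was −0.82 over the 47 genes, but most of these fits rest on very few counts. Of the full list, 13 genes were at 0 counts in all 3 h libraries. FHs held 0 counts for 4 genes and 1 to 3 counts for 26. The tested genes passed the filter on low counts mainly through the later groups, so this median shows no fall of the list as a whole. Without Bub3 the summed level was 174, 87.4 and 60.8 CPM in FHs and 92.1, 69.1 and 142 CPM at 3 h, and the groups overlapped. The leukocyte markers that fell over the same 3 h numbered 4 of the 6 tested of a list of 10, while Cd3e and Cd79a were at 0 in FHs. Endothelial markers summed to 185 to 323 CPM in FHs and 55.6 to 117 CPM at 3 h, with 0 of 7 called, and stellate and fibroblast markers to 76.8 to 198 and 32.5 to 37.4 CPM. The part of these cells in the level of Mki67 was not tested. Without FH replicate 1 Mki67 was not called (edgeR FDR 0.110), and 2 other genes were, Birc5 as lower and Cenpa as higher. Without 3 h replicate 2 none was called (Mki67 FDR 0.130). Of the CDK inhibitors and p53 targets, 3 of 11 tested rose at 3 h, a count with no share of all genes risen beside it. Among them were Cdkn1a (log2 fold change 5.77, SE 0.45, edgeR FDR 3.51e-08), which encodes the CDK inhibitor p21, and Gadd45a, a stress-response gene (log2 6.94).

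Between 3 h and 1 day 3 genes rose and 3 fell, where 10.7% of all genes rose and 13.5% fell. Smc2 rose from 3.59, 2.03 and 3.21 to 14.2, 33.04 and 13.6 CPM (log2 fold change 2.59, SE 0.45, edgeR FDR 0.000106). Cdca8, a subunit of the chromosomal passenger complex, and Kif20a, a kinesin of the central spindle, also rose (log2 2.61, SE 0.78, FDR 0.00982 and log2 2.68, SE 1.21, FDR 0.0752). Kif20a was not called in 5 of 14 alternatives, 4 of them with 1 library left out (3 h replicate 1 or 2, or 1 day replicate 1 or 2; edgeR FDR 0.144 to 0.213). The 3 that fell did so from very few counts. Cdca3 went from 5 counts to 0 (at least 3.80-fold lower), Ttk, a checkpoint kinase, from 3 counts to 0 (at least 2.28-fold), and Cenpf, a kinetochore protein, from 6 to 2 counts (6.83-fold, counting interval 1.22 to 69.2). Cenpf was not called without 3 h replicate 1 or 1 day replicate 3, nor Ttk without 3 h replicate 3. Scaled by library totals alone, which moved the median of all genes by 0.74 on the log2 scale in this comparison (by up to 0.88 against FHs and by −0.22 between aggregates and dediHeps), 8 rose and 2 fell. Compared with FHs, 4 genes were lower at 1 day, Mki67, Kif23, Cdca3 and Birc5, where 10.9% of all genes were. Mki67 had 2 counts against 25 in FHs and was 29.2-fold lower (counting interval 7.27 to 254, edgeR FDR 0.000749). Kif23, the kinesin of the centralspindlin complex, had 0 counts against 3, and Cdca3 0 against 4 (at least 3.11-fold). Birc5 was not called with library totals (edgeR FDR 0.102), in a fit of all 49 libraries (0.179), without FH replicate 2 (0.212) or without 1 day replicate 1 (0.149). With library totals 3 genes were higher and 3 lower than in FHs, so the split of these calls depended on the scaling.

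The step came between 1 and 2 days. Of 47 genes tested, 44 rose and none fell, where 2.52% of all genes rose, with a median log2 fold change of 5.07 over the 47 genes and 0.02 over all genes. The 1 day libraries held 0 counts for 12 of the 50 genes and 1 to 3 counts for 15 more. With the genes at 0 set to their lower bound, the median was 4.38. The tested genes passed the filter on low counts through the later groups, so their count is a description. Cdc25c, Nek2 and Bub1 were not tested. The genes that were tested and not called were Bub3 (log2 fold change 0.25, SE 0.34, edgeR FDR 0.839), Gtse1, a G2 and S phase protein (log2 0.87, SE 1.17, FDR 0.833), and Ncapd2, a condensin subunit (log2 1.87, SE 0.51, FDR 0.0263), which passed the FDR threshold but not the fold. By role, 5 of 5 cyclins, Cdk1 and activators tested rose, as did 3 of 3 kinases, 4 of 5 checkpoint genes, 5 of 5 kinetochore genes, 3 of 3 passenger complex genes, 8 of 8 kinesins, 6 of 7 spindle genes, 3 of 3 cytokinesis genes, 5 of 6 chromosome structure genes and both of the last pair.

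Values by library were as follows for the genes of each role. Cdk1, the kinase that drives entry into mitosis, measured 10.3, 18.3 and 5.56 CPM at 1 day and 105, 133 and 424 CPM at 2 days (log2 fold change 4.28, SE 0.62, edgeR FDR 0.000102). Ccnb1, its cyclin partner, measured 0, 1.02 and 0.505 CPM and then 14.4, 18.7 and 52.99 CPM (57.3-fold higher by counts, counting interval 19.3 to 280.1, FDR 4.21e-05). For both genes every library at 2 days lay above every library at 1 day, and replicate 3 was the highest. Plk1, a kinase of spindle assembly and mitotic entry, measured 0.860, 0.508 and 1.01 CPM and then 26.3, 37.5 and 84.3 CPM (log2 5.85, SE 0.70, FDR 1.69e-05). Aurkb, the kinase of the passenger complex, went from 0 counts to 2.55, 2.68 and 12.04 CPM, at least 11.3-fold higher (edgeR FDR 0.00319). Birc5, the complex's survivin subunit, measured 0, 1.02 and 0.505 CPM and then 61.1, 82.6 and 142 CPM, 194-fold higher by counts (654 against 3, counting interval 66.1 to 943). The 2 groups did not overlap for any of these kinase and passenger genes. Cdc20, an activator of the anaphase-promoting complex, measured 0.430, 0.508 and 0 CPM and then 8.49, 17.2 and 16.9 CPM (44.5-fold higher by counts, counting interval 12 to 372, FDR 0.000119). Kif11, the kinesin that separates the spindle poles, measured 0.430, 0.508 and 0 CPM and then 10.2, 7.65 and 18.8 CPM (36.9-fold higher by counts, counting interval 9.91 to 310.0, FDR 8.22e-05). Ube2c, the ubiquitin-conjugating enzyme of the same complex as Cdc20, measured 0.430, 0.508 and 0.505 CPM and then 7.64, 6.12 and 29.4 CPM (28.2-fold higher by counts, counting interval 9.36 to 139, FDR 0.00121). The rise of these genes was again seen in all 3 libraries. Top2a, the topoisomerase that untangles sister chromatids, measured 2.58, 4.07 and 4.55 CPM and then 144, 179 and 363 CPM (log2 5.94, SE 0.54, FDR 1.08e-06). Foxm1 measured 0.430, 0 and 0 CPM and then 10.2, 28.3 and 24.1 CPM (132-fold higher by counts, counting interval 23.3 to 5237, FDR 6.95e-05). Mki67 had 2 counts at 1 day and 2000 counts at 2 days, a ratio of 889.9 with a counting interval of 246 to 7354.

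**Figure D3:**
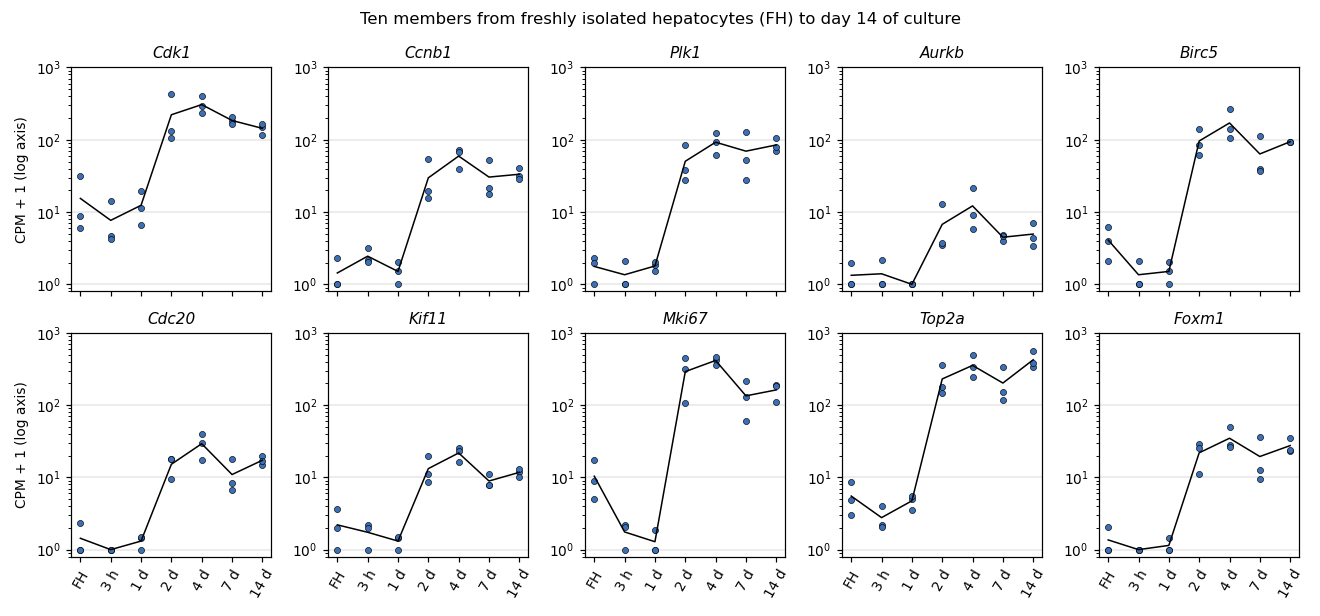
Level of 10 genes (CPM + 1, logarithmic axis) in each library of the time course from FHs to 14 days, with a line through the group means. For each of the 10 genes every library at 2 days is above every library at 1 day, as for Cdk1 with 5.56 to 18.3 CPM at 1 day and 105 to 424 CPM at 2 days.

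The other genes of the pathway also moved at this step. Of 61 other mitotic genes tested 37 rose, among them Pbk, a mitotic kinase (log2 9.11), Spag5, a spindle protein (4.23), and Sgo1, a protector of centromeric cohesion (5.81). Of 35 S phase genes 23 rose, among them Clspn, a replication checkpoint protein (6.43), Uhrf1, which maintains DNA methylation (6.58), and Pola1, a DNA polymerase subunit (3.97). Of 17 genes for DREAM and MuvB subunits, E2F factors and B-Myb 4 rose, among them E2f1 (2.79), E2f7 (5.11) and Mybl2, which encodes B-Myb (4.54). Fitted values of genes near 0 counts at 1 day are no bounds. The median of the S phase genes was 2.40 against 5.07 for the mitosis genes, on the log2 scale.

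The balance of mitosis to S phase genes is given by group, without a test. The summed level of the 50 genes divided by that of the 35 S phase genes was 0.156 ± 0.0744 in FHs, 0.261 ± 0.0239 at 3 h and 0.302 ± 0.0996 at 1 day (SD, n = 3 each). It was 0.877 ± 0.252 at 2 days, 1.77 ± 0.110 at 4 days, 1.78 ± 0.189 at 7 days and 1.42 ± 0.236 at 14 days (n = 3 each). DediHeps had 1.59 ± 0.164 (n = 5) and CLiPs 1.11 ± 0.595 (n = 3). The dediHep libraries thus ranged far less in this ratio than in their summed level, which ran from 1350 to 6275 CPM. In aggregates the ratio was 0.386 ± 0.131 (n = 3), and 0.227 ± 0.140 without Bub3, which also carried much of it in FHs (0.116 ± 0.0728 without Bub3), at 3 h (0.138 ± 0.0193) and at 1 day (0.175 ± 0.0577). Among organoids it was 1.31 ± 0.0870 in dediHep-SOs, 1.91 ± 0.223 in dediHep-BOs, 1.73 ± 0.0615 in FIPC-SOs (n = 3 each) and 1.96 ± 0.166 in ISC-BOs (n = 4). From 2 to 4 days none of the 47 genes was called by edgeR or by DESeq2, where 2.35% of all genes were called in either direction, and 11 were higher at an unadjusted p under 0.05. Their median log2 fold change was 0.73, and that of the S phase genes −0.30, of which 0 were higher and 1 lower at that unadjusted p. Without the 2 day replicate 3 library, 2 genes were called, Bub1b and Ccnb2, both higher. Counts at an unadjusted p, here and below, are a description, since no share of all genes at that threshold is set beside them.

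From 4 to 7 days the level was lower again. Melk, a kinase of the G2/M phase, went from 53.5, 64.9 and 37.5 CPM to 8.21, 9.57 and 13.5 CPM and fell (log2 fold change −2.32, SE 0.49, edgeR FDR 0.013). Dlgap5, a spindle protein, went from 24.1, 18.3 and 10.7 CPM to 5.97, 2.39 and 2.31 CPM and fell (log2 −2.33, SE 0.61, FDR 0.0541). The 7 day libraries lay below the 4 day libraries for both. These 2 were the called genes of 47, where 0.932% of all genes fell, and at FDR under 0.1 with any fold Aurka, a spindle pole kinase (log2 −1.75), and Kif20b (−1.95) were lower too, where 1.84% of all genes were. Every 7 day library was below every 4 day library in 23 of the 47 genes, against 7.9% of all genes, and the median log2 fold change was −1.05, against 0.04 over all genes. Leaving out 1 library moved the count of called genes to 1, Melk, without 4 day replicate 1 or 7 day replicate 3, to 6 without 7 day replicate 1 and to 5 without 7 day replicate 2. Dlgap5 was not called without 4 day replicate 1 or 2 or 7 day replicate 3. With the replicate number as a block 3 were called. Stellate and fibroblast markers summed to 44.5, 39.2 and 4.28 CPM at 4 days and 175, 112 and 44.5 CPM at 7 days, with 1 of 6 tested risen, and their part was not tested. Of 35 S phase genes 18 were lower at an unadjusted p under 0.05, with a median of −1.10 and none called. From 7 to 14 days none of the 47 genes was called by edgeR or DESeq2, where 1.75% of all genes were, with 3 higher and 1 lower at an unadjusted p under 0.05. Without 7 day replicate 1, 1 gene was called, Gtse1, as lower.

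Against FHs, 46 of 47 genes had risen at 4 days, where 11.4% of all genes rose, and 43 at 14 days, where 14.1% rose. The strongest evidence was for Top2a at both times (log2 6.14 at 4 days and 6.42 at 14 days), followed by Smc2 (4.01 and 3.21). Prc1, which bundles the microtubules of the central spindle, followed at 4 days (6.74) and Plk1 at 14 days (6.56). FHs held 0 counts for 4 of the 50 genes and 1 to 3 counts for 26. Many of these fits thus rest on a group at or under the floor. The tested genes passed the filter on low counts mainly through the later groups, so the numbers risen are a description. With the genes at 0 set to their bound, the median was 4.94 at 4 days and 3.97 at 14 days. Bub3 passed the FDR threshold without the fold at both times (1.69 and 1.77). At 14 days Cenpa (1.57, FDR 0.0259) did so too, while Gtse1 (2.31, FDR 0.246) and Smc4, a condensin subunit (1.10, FDR 0.162), did not pass by edgeR. The comparisons with FHs share the same 3 FH libraries. Stellate and fibroblast markers summed to 193, 352 and 68.7 CPM at 14 days, against 76.8 to 198 CPM in FHs. Leukocyte markers summed to 169, 206 and 13.7 CPM at 14 days, against 82.8 to 278 CPM in FHs. The part of such cells in the levels at 14 days was not tested.

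DediHeps kept these genes high. Of 44 tested against FHs 43 rose, where 13.1% of all genes rose, with a median log2 fold change of 4.90, or 4.82 with the genes at 0 in FHs set to their bound. Top2a measured 7.61, 3.91 and 1.99 CPM in FHs and 100.2, 346, 706, 386 and 406 CPM in dediHeps (log2 fold change 6.17, SE 0.75, edgeR FDR 7.83e-05). Tpx2, which nucleates spindle microtubules, and Kif23 had log2 fold changes of 5.36 (SE 0.76) and 4.17 (SE 0.62). The gene not called was Smc4 (log2 1.68, FDR 0.0681). Without dediHep replicate 3 the count was 40. Of 58 other mitotic genes tested 44 rose, and of 32 S phase genes 18 rose and 2 fell, among the latter Mcm10, a replication factor (log2 −4.61). Cdkn1a rose as well (log2 5.96, SE 0.41, FDR 1.66e-06). Against the 14 day monolayer none of 47 genes was called by edgeR or DESeq2, where 5.93% of all genes were, and 3 were higher at an unadjusted p under 0.05. Cdc25b, a phosphatase that activates Cdk1, was higher at FDR under 0.1 (log2 1.95, SE 0.65, FDR 0.0791). Leaving out dediHep replicate 1, 4 or 5 gave 1, 2 and 1 called genes, and leaving out replicate 3 gave none.

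Aggregation of dediHeps was accompanied by a fall of nearly all of these genes. Of 45 tested 44 fell, where 5.11% of all genes fell, with a median log2 fold change of −4.41 against −0.07 over all genes. The exception was Bub3, which was lower without passing the fold threshold (log2 fold change −0.80, SE 0.28, edgeR FDR 0.0792). Cdc25c, Nek2, Bub1, Dlgap5 and Gtse1 were not tested. Aggregates held 0 counts for 4 of the 50 genes and 1 to 3 counts for 12 more, and the tested genes passed the filter on low counts mainly through the dediHep libraries, so this count too is a description. Without dediHep replicate 3 the count was 40, and with the dediHep culture as a block it was 42.

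Cdk1 measured 170.3, 171, 499, 146 and 159 CPM in dediHeps and 3.87, 15.6 and 37.9 CPM after aggregation (log2 −3.55, SE 0.71, FDR 0.0104 by edgeR). Ccnb1 measured 10.4, 31.02, 169, 35 and 43.4 CPM and then 0.773, 1.30 and 4.10 CPM (log2 −4.72, SE 1.02, FDR 0.0146). Plk1 measured 20.8, 62.03, 217, 91.6 and 88.3 CPM and then 0.773, 4.35 and 16.9 CPM (log2 −3.64, SE 0.89, FDR 0.0241). In all 3 genes the aggregates lay below every dediHep library, and aggregate replicate 3 was the highest of the aggregates. Aurkb was at 8.21, 12.2, 28.7, 3.66 and 6.27 CPM in dediHeps and at 0 counts in the 3 aggregates, at least 24.6-fold lower (edgeR FDR 0.0117). Birc5 measured 28.5, 107, 272, 38.3 and 99.8 CPM and then 2.32, 3.04 and 9.74 CPM (log2 −4.38, SE 0.88, FDR 0.0107). Neither passenger complex gene overlapped between the groups. Cdc20 was lower by counts by 44.1-fold (3 against 276, counting interval 14.9 to 215), and Kif11 by 45.1-fold (3 against 282, interval 15.3 to 220). Mki67 was at 0.773, 3.91 and 13.3 CPM in aggregates (log2 −5.45, SE 0.88, FDR 0.00383). These genes were detected in at least 1 aggregate. Top2a measured 1.55, 15.2 and 40 CPM in aggregates (log2 −4.31, SE 0.86, FDR 0.0101), and Foxm1 measured 9.85, 41.2, 65.4, 25.2 and 17.8 CPM in dediHeps and 0.773, 1.30 and 5.13 CPM in aggregates (log2 −3.64, SE 0.79, FDR 0.0152).

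The smallest p-values were those of Kifc1, Ect2 and Kif23. Kifc1, a minus-end kinesin, had 3 counts in aggregates and 456 in dediHeps, 72.9-fold lower (counting interval 24.8 to 355, edgeR FDR 0.000629), and shares its sequence with the near-identical gene Kifc5b, so its counts are uncertain. Ect2, an exchange factor for RhoA at the cleavage furrow, measured 18.6, 34.6, 68.5, 19.1 and 33.3 CPM and then 0.773, 1.74 and 1.54 CPM (log2 −4.55, SE 0.65, FDR 0.00193). Kif23 measured 14.8, 32.5, 36.7, 17.5 and 21.7 CPM and then 0, 1.74 and 0.513 CPM (log2 −4.73, SE 0.71, FDR 0.00257). For these 3 genes the groups did not overlap.

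**Figure D4:**
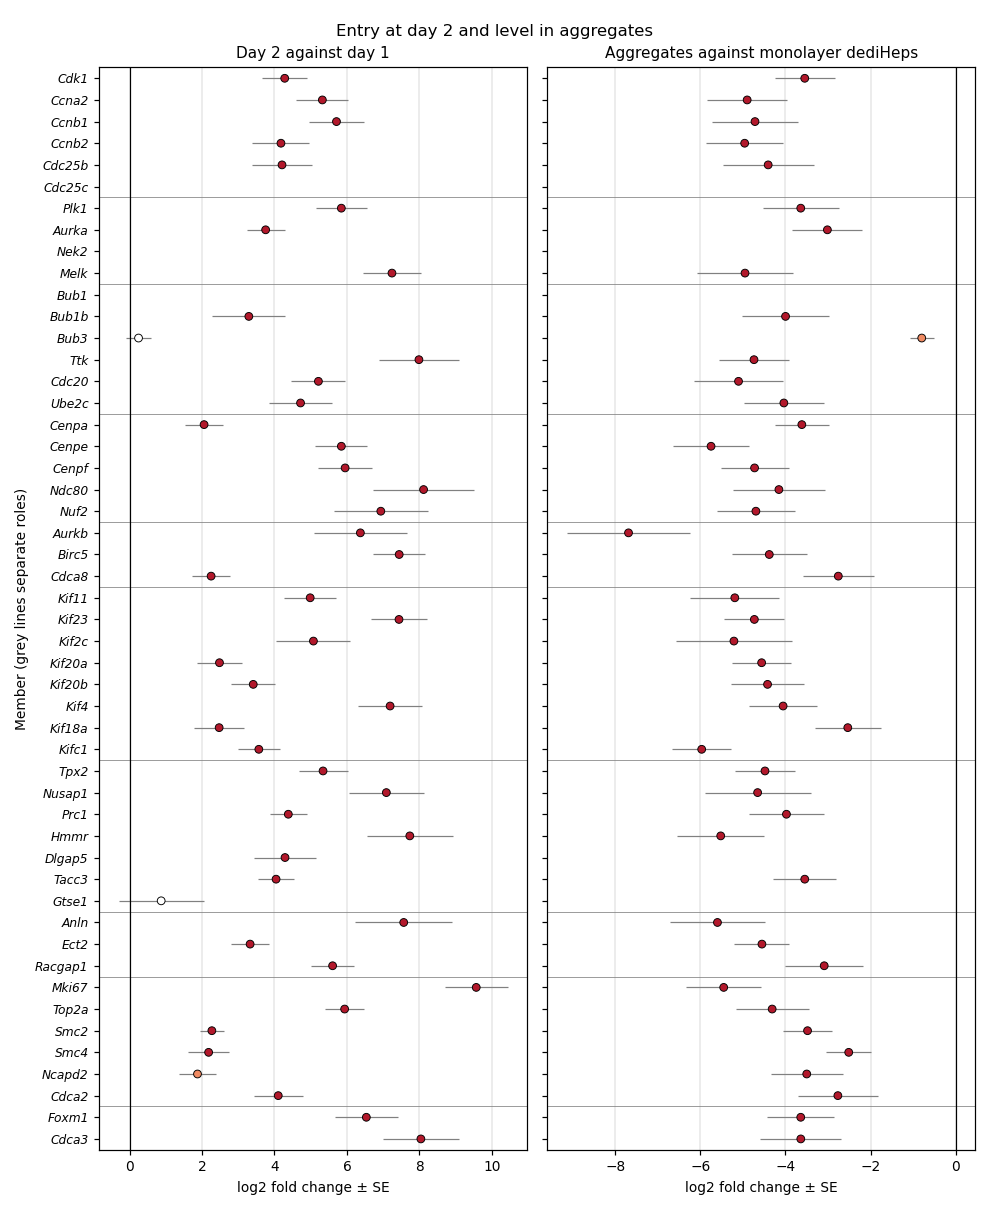
Log2 fold change with its SE for each of the 50 genes at 2 days against 1 day and in aggregates against dediHeps, from edgeR. Red points passed both thresholds, orange the FDR alone and white neither, missing genes were not tested, and 44 genes are red in each panel, to the right of 0 at 2 days and to the left in aggregates, where fits of genes at 0 counts in 1 group give no bound.

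The labels tie the 3 aggregates to 3 of the dediHep cultures. The summed level was 129 against 1350 CPM in the first culture, 227 against 2295 CPM in the second and 412 against 2035 CPM in the third, which is 10.5-fold, 10.1-fold and 4.94-fold lower. Bub3 alone made up 84.3, 96.5 and 116 CPM of the aggregate sums. Without it the sums were 44.9 against 1168 CPM, 130.4 against 2113 CPM and 296 against 1886 CPM, or 26.04-fold, 16.2-fold and 6.37-fold lower. None of these is dediHep replicate 3. Of 60 other mitotic genes tested 41 fell, among them Psrc1 (log2 −3.90), Arhgap11a (−2.35) and Spag5 (−4.11). Of 33 S phase genes 10 fell, among them Cdc6 (−4.17) and Mcm4 (−3.93), which license replication origins, and Rrm1 (−2.55), a ribonucleotide reductase subunit. Of 12 CDK inhibitors and p53 targets 3 fell, Ccng1, Btg2 and Gadd45a, and none rose. Of the DREAM and B-Myb list Rbl1, which encodes the pocket protein p107, fell (log2 −2.69, SE 0.67, FDR 0.0256). Hepatocyte markers moved the other way, with 6 of 11 risen, a count with no share of all genes risen beside it. They summed to 9605 to 13899 CPM in aggregates against 1188 to 5027 CPM in dediHeps. Cholangiocyte markers summed to 356 to 644 CPM in aggregates against 1113 to 1701 CPM in dediHeps. Against FHs just 3 of the 50 genes could be tested, and edgeR and DESeq2 called none, where 16.6% of all genes were called, with 1 higher at an unadjusted p under 0.05. Bub3 was that gene (log2 1.26, SE 0.36, FDR 0.0248), with Cdk1 at 0.21 (FDR 0.871) and Cenpa at −1.17 (FDR 0.143). Without aggregate replicate 1, 1 gene was called, Top2a, as higher. Among the untested genes, some were higher in aggregates by counts, picked after their values were seen. Plk1 had 44 counts against 2 in FHs (10.7-fold, counting interval 2.78 to 90.9). Prc1 had 22 against 2 (5.33-fold, interval 1.31 to 46.8) and Foxm1 14 against 1 (6.79-fold, interval 1.03 to 287). Nek2 and Gtse1 were among those lower, with 0 counts in aggregates against 5 and 2 in FHs.

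In organoids the genes were high. Between dediHep-SOs and dediHeps none of 49 genes was called by edgeR or DESeq2, where 8.76% of all genes were, 2 were higher at an unadjusted p under 0.05, and the median log2 fold change was 0.14. Cdc25b was higher at FDR under 0.1, with 74.98, 63.2 and 77.8 CPM in dediHep-SOs and 8.21, 19.3, 60.2, 15.9 and 16.4 CPM in dediHeps (log2 1.61, SE 0.53, FDR 0.0812). Without dediHep replicate 3 it was called. By culture, the summed level in dediHep-SOs was 2.37 times, 0.592 times and 1.38 times that of the monolayer, the culture at 0.592 being dediHep replicate 3 itself.

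DediHep-BOs, which carry Cdx2, were higher than dediHep-SOs in some of the genes. In the paper, spherical organoids formed with Wnt3a and a Wnt agonist in the medium, and both were removed for efficient formation of budding organoids. Cdx2 and such a change of medium cannot be told apart here. Nek2, a centrosomal kinase, measured 1.26, 1.51 and 5.43 CPM in dediHep-SOs and 13.5, 9.94 and 12.9 CPM in dediHep-BOs (log2 fold change 2.15, SE 0.55, edgeR FDR 0.018). It was the called gene of 50 tested, where 5.6% of all genes rose. Without dediHep-SO replicate 1 or 2, and in a fit of all 49 libraries, no gene was called, and without replicate 3 there were 4. At FDR under 0.1 with any fold, 21 of 50 genes were higher and none lower, against 19.2% of all genes higher. Every dediHep-BO library was above every dediHep-SO library in 30 of the 50 genes, against 23.5% of all genes. Cyclin A2 (Ccna2) measured 76.6, 85.8 and 82.4 CPM and then 201, 158 and 227 CPM (log2 1.25, SE 0.25, FDR 0.00496). Melk measured 24.3, 43.7 and 42.1 CPM and then 107, 88.6 and 109 CPM (log2 1.47, SE 0.31, FDR 0.00712). Smc4 measured 22.4, 35.1 and 36.2 CPM and then 74.1, 78.7 and 85.3 CPM (log2 1.35, SE 0.30, FDR 0.00929). The libraries of the 2 groups did not overlap for these 3 genes. Among the genes that did not pass were Birc5 (log2 −0.06, FDR 0.882), Ccnb1 (0.37, FDR 0.392), Plk1 (0.34, FDR 0.31), Foxm1 (−0.26, FDR 0.62) and Top2a (log2 0.19, SE 0.22, FDR 0.538) by edgeR. Of 17 DREAM and MuvB subunits, E2F factors and B-Myb 4 rose, among them Tfdp2, a partner of E2F (2.13), Rb1, the retinoblastoma protein (2.11), and E2f8 (2.26). No S phase gene of 34 was called by edgeR, with 9 higher and 7 lower at an unadjusted p under 0.05. The leukocyte list summed to 399 to 1057 CPM in dediHep-BOs and 9.96 to 22.6 CPM in dediHep-SOs, mostly from Lyz2. In ISC-BOs it summed to 153 to 449 CPM and in FIPC-SOs to 32.1 to 57.2 CPM. Stellate and fibroblast markers summed to 297, 293 and 4.74 CPM in dediHep-BOs against at most 1.51 CPM in dediHep-SOs. Whether such cells were present, and their part in the differences, was not tested.

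DediHep-SOs were lower than FIPC-SOs in some of the genes. Ttk measured 10.1, 11.04 and 14.5 CPM in dediHep-SOs and 39.04, 56.4 and 59.1 CPM in FIPC-SOs (log2 fold change −2.13, SE 0.33, edgeR FDR 0.00238). It was the called gene of 49 tested, where 3.99% of all genes were lower, and library totals gave 2. Without dediHep-SO replicate 3 there were 4 and without FIPC-SO replicate 1 there were 3. At FDR under 0.1 with any fold, 20 were lower and none higher, against 10.3% of all genes lower. Every dediHep-SO library was below every FIPC-SO library in 29 of the 49, against 16.3% of all genes. Kif18a, a kinesin that dampens chromosome oscillation (log2 −1.88), Melk (−1.65), Nusap1, a spindle microtubule protein (−1.60), Ccna2 (−1.57) and Aurka (−1.54) were among the 20. Kif11 (0.00, FDR 0.996), Foxm1 (−0.04) and Racgap1, the partner of Kif23 in centralspindlin (0.53, FDR 0.308), did not pass by edgeR. The fibroblast markers of FIPC-SO replicate 3 summed to 476 CPM, against 5.79 and 12.4 CPM in the other 2, and their part was not tested. The comparisons of dediHep-SOs with dediHep-BOs and with FIPC-SOs share the 3 dediHep-SO libraries.

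Against ISC-BOs none of 50 genes was called in dediHep-BOs by edgeR or DESeq2, where 3.05% of all genes were, with 3 higher at an unadjusted p under 0.05 and a median log2 fold change of −0.01. Gtse1 was higher at FDR under 0.1 (log2 1.57, SE 0.47, FDR 0.0802). Between the intestinal organoids, ISC-BOs against FIPC-SOs, none was called by edgeR or DESeq2, where 6.62% of all genes were, with 6 lower at an unadjusted p under 0.05. Ttk (log2 −0.80), Kif18a (−1.07) and Gtse1 (−1.81) were lower at FDR under 0.1 with any fold, where 6.95% of all genes were. Leaving out FIPC-SO replicate 1 or ISC-BO replicate 4 gave 1 called gene each, Gtse1.

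**Figure D5:**
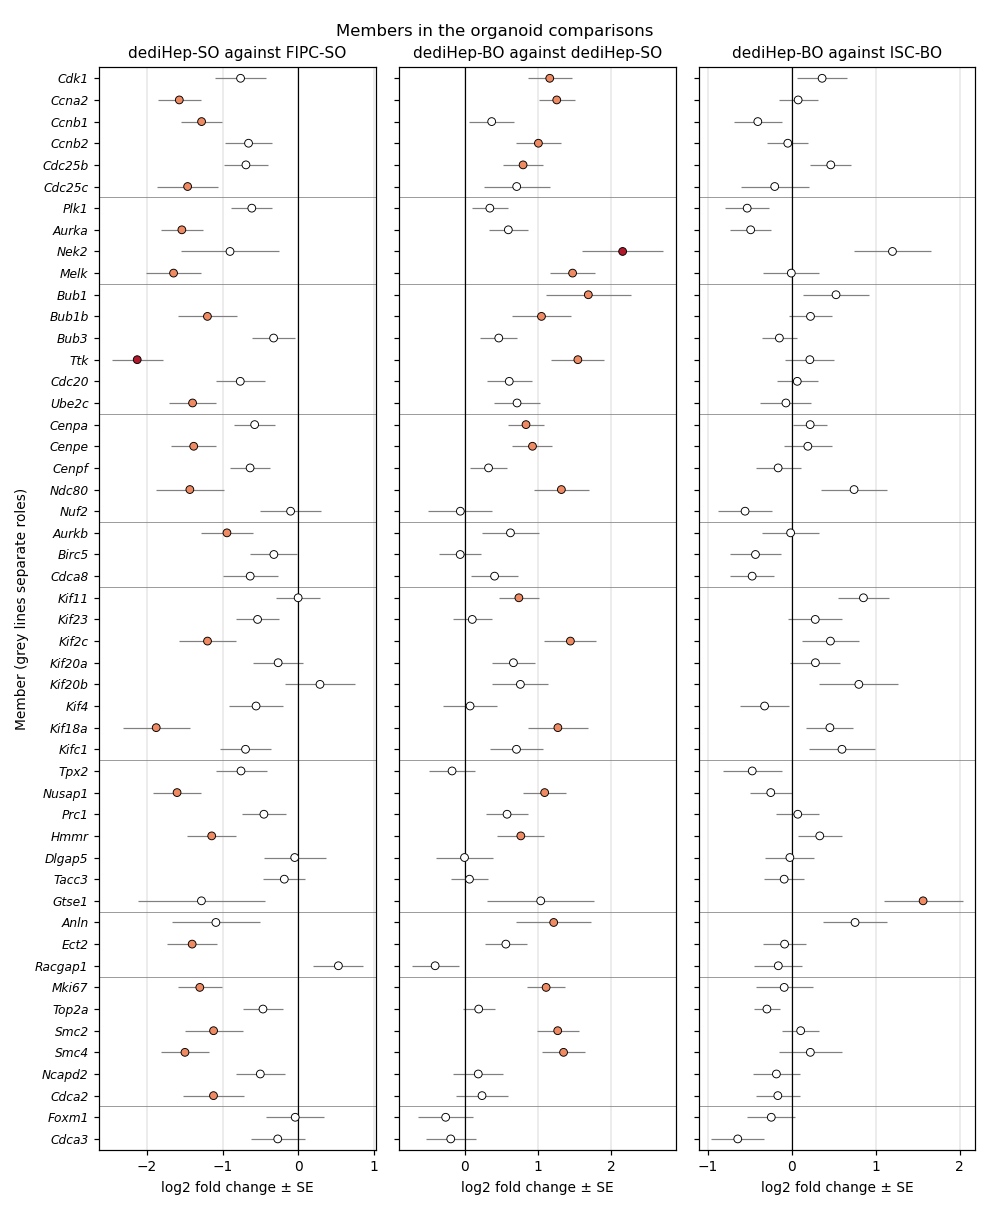
Log2 fold change with its SE for each of the 50 genes in 3 comparisons of organoids, from edgeR (red, both thresholds passed; orange, FDR alone; white, neither). Ttk is the red point of dediHep-SOs against FIPC-SOs and Nek2 that of dediHep-BOs against dediHep-SOs, and the points of dediHep-BOs against ISC-BOs lie around 0, with a median of −0.01.

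In CLiPs all 47 genes tested had a lower fitted level than in dediHeps. Their median log2 fold change was −1.72, against −0.03 over all genes, and 2 fell, where 1.39% of all genes fell. By library the summed levels overlapped, with CLiPs at 314, 892 and 1848 CPM and dediHeps at 1350 to 6275 CPM. Kifc1 measured 4.10, 13.6 and 10.2 CPM in CLiPs and 25.2, 35.1, 58.9, 22.8 and 45.3 CPM in dediHeps (log2 fold change −2.03, SE 0.50, edgeR FDR 0.0644). Kif23 measured 1.54, 5.81 and 9.76 CPM and 14.8, 32.5, 36.7, 17.5 and 21.7 CPM (log2 −2.15, SE 0.58, FDR 0.0911). For both, all 3 CLiP libraries were under all 5 dediHep libraries. The count rested on single libraries. Kifc1 was not called in 6 of 16 alternatives and Kif23 in 5. The count was 0 without dediHep replicate 2, 3 or 5 or CLiP replicate 1, 4 without dediHep replicate 4, 6 without dediHep replicate 1 and 7 without CLiP replicate 3. DESeq2 gave 12. The leukocyte list summed to 71.3 to 149 CPM in CLiPs, of which Csf1r made up 67.5 to 148 CPM, while Ptprc, Clec4f, Adgre1, Cd5l, C1qa and Cd3e were at 0 in all 3 libraries.

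In the monolayers of 7 days, none of 47 genes was called with verteporfin against DMSO by edgeR or DESeq2, where 0.269% of all genes were called. At an unadjusted p under 0.05, 14 were higher and 1 lower, with no share of all genes beside these counts. The median log2 fold change was 0.57, against −0.004 over all genes. Both verteporfin libraries were above both DMSO libraries in 29 of the 47 genes, against 21.3% of all genes. Cdk1 measured 567 and 593 CPM with verteporfin and 296 and 468 CPM with DMSO (log2 fold change 0.60, SE 0.24, edgeR FDR 0.499). Top2a measured 465 and 375 CPM and 259 and 248 CPM (log2 0.73, SE 0.23, FDR 0.38). Smc4 measured 17.97 and 19.3 CPM and 43.5 and 25.6 CPM (log2 −0.90, SE 0.37, FDR 0.515). For Cdk1 and Top2a the verteporfin libraries were the higher ones and for Smc4 the DMSO libraries were.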

How the data were processed

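Bulk RNA of 49 libraries was sequenced by CEL-Seq2, and the authors deposited whole-number UMI counts per gene, made with the celseq2 pipeline. The submitters' processing notes name bcl2fastq 2.20, Bowtie2 2.3.1, HTSeq 0.6.0 and the build GRCm38. UMIs of 6 bases cannot exceed 4096 per gene, a ceiling reached in 4 libraries, while the highest count of a gene described here was 2554. Gene names came from GENCODE M21 and matched 45143 of 46078 identifiers. CEL-Seq2 counts the 3′ ends of transcripts, so tests compared each gene between groups and not with other genes. Sums, ratios of sums and the part of Bub3 in them do set genes beside one another. Genes with high counts weigh most in them. Library totals ran from 861047 to 3872936 (median 1976760), and 3 counts served as the floor. Counting intervals (exact, 95%) and floors cover counting error only.

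Groups and replicate numbers came from the labels. The counts were tested with edgeR 4.0.16 (R 4.3.3, limma 3.58.1; TMM, filterByExpr with a minimum of 10 and a total of 15, quasi-likelihood F test, Benjamini-Hochberg adjustment over all genes tested). The time course from FHs to 14 days was one fit, and each other comparison used its own libraries. The standard error of a log2 fold change was its size divided by the square root of F. Levels are CPM with TMM factors over all 49 libraries. Alternatives were DESeq2 1.42.0, other size factors, library totals, other filters and thresholds, a correction for UMI collisions, a fit of all 16 groups, a replicate block, and each library left out. The procedure was tested on simulated data. Python 3.11.15 with pandas 2.3.3, scipy 1.17.1 and matplotlib 3.10.9 gave the levels and figures.

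The members and all gene lists were chosen with earlier results of these data known. Named were all 50 members by role, 10 of them by library, the 3 called with the smallest p per comparison and direction, those called against the main direction, the 3 smallest p among called genes of a pathway list, the 10 other genes most alike and the 5 members least alike. Ccna2, Melk, Smc4, Smc2, Bub3, Cdc25b and further members given by library were added after their values were seen. Same-numbered libraries of 4 and 7 days deviated together (r 0.27 to 0.623 over genes), as did aggregates and dediHeps of one culture (0.178 to 0.357, cultures named in the labels). Both counted as paired, but the FDRs given for them come from fits without pairing, and the block was an alternative. Verteporfin and DMSO libraries also deviated together (r 0.438), but their 2 pairs were too few to count. In each other comparison at least 1 pair did not deviate together. Replicate pairs differed beyond sampling noise. The study describes independent experiments, but the labels of most groups do not say so, and p-values then cover only the spread between these libraries.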

Additional observations from a re-analysis of the deposited data

Results flagged for a closer look

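In 22 sets of values, all from dediHeps (5 libraries) and ISC-BOs (4 libraries) and so not independent, 6 held a library far from the rest of its group, where chance gives about 1 in 20. The summed CPM of the 50 genes in dediHeps was 6275 in replicate 3, and the next highest was 2540. The same library was far above the other 4 for Cdk1 (499 CPM, next 171), Ccnb1 (169 CPM, next 43.4) and Cdc20 (56.5 CPM, next 16.4). In ISC-BOs, replicate 2 was far below the other 3 for Mki67 (267 CPM, next 894) and far above them for Birc5 (335 CPM, next 186). The cause was not tested.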

How the results depend on the processing

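No direction was reversed. Of 3481 values of called genes under alternatives, 3399 kept their call and 82 lost it, and 251 of 290 medians moved by less than 1 SD. Most losses were in aggregates against dediHeps, 23 of 697 values, where 10 of 44 called genes lost their call at least once, among them Cdca2 and Kif18a. At 2 days against 1 day, 5 of 44 did, in 13 of 616 values. Other losses were Mki67 at 3 h and Birc5 at 1 day against FHs, Dlgap5 at 7 against 4 days and Nek2 in dediHep-BOs. Kifc1 and Kif23 in CLiPs were among them too. Counts of called genes that moved by over 1.5 times follow, and the cause was not tested unless the setting itself removes the fold or the filter. At FDR under 0.1 with any fold they were 4 (3 h against FHs), 4 (7 against 4 days), 7 (1 day against FHs), 1 (dediHeps against 14 days), 1 (aggregates against FHs), 1 (dediHep-SOs against dediHeps), 21 (dediHep-BOs against dediHep-SOs), 20 (dediHep-SOs against FIPC-SOs), 1 (dediHep-BOs against ISC-BOs) and 3 (ISC-BOs against FIPC-SOs). At FDR under 0.05 with log2 over 1 they were, where moved, 2, 1 (aggregates against FHs), 13, 14, 1 (ISC-BOs) and 0 (CLiPs). Library totals gave 10 (1 day against 3 h), 1 (dediHeps against 14 days) and 2 (dediHep-SOs against FIPC-SOs). No filter gave 2 (4 against 2 days), 1 (14 against 7 days), 2 (dediHeps against 14 days), 4 (aggregates against FHs) and 8 (CLiPs), and a filter at 1 CPM gave 1 (aggregates against FHs) and 4 (CLiPs). One fit of all 49 libraries gave 1 (dediHeps against 14 days), 5 (aggregates against FHs), 0 (dediHep-BOs against dediHep-SOs) and 18 (CLiPs), and DESeq2 gave 12 (CLiPs). The replicate block gave 7 for CLiPs, whose numbers do not pair the libraries (r −0.136 to 0.0236), 3 for 7 against 4 days, and 42 for aggregates against dediHeps, and moved no other count by over 1.5 times. With each library left out in turn the counts ran from 0 to 2 (3 h against FHs, 4 against 2 days, dediHeps against 14 days), 1 to 6 (7 against 4 days), 0 to 1 (14 against 7 days, aggregates against FHs, dediHep-SOs against dediHeps, ISC-BOs against FIPC-SOs), 0 to 4 (dediHep-BOs against dediHep-SOs), 1 to 4 (dediHep-SOs against FIPC-SOs), 0 to 7 (CLiPs), 40 to 46 (2 days against 1 day) and 36 to 44 (aggregates against dediHeps). Depth limits FHs, 3 h, 1 day and aggregates, where many genes held 3 counts or fewer.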

Other observations

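Within some groups the genes did not move together from library to library, a pattern picked out after the values were seen and not tested. In ISC-BO replicate 2, Mki67 (267 CPM, against 894 to 914 CPM in the other 3) and Cdk1 (195 CPM, against 424 to 584 CPM) were the lowest of the group, as was Kif11 (20.7 CPM), while Birc5 (335 CPM, against 161 to 186 CPM) and Plk1 (299 CPM, against 153 to 198 CPM) were the highest. At 7 days, replicate 1 had the lowest Mki67 (59.7 CPM, against 128 and 212 CPM) and the highest Plk1 (128 CPM, against 26.3 and 50.8 CPM) and Birc5 (113 CPM, against 36.3 and 38.7 CPM). In CLiPs, replicate 3 had the highest Plk1 (91.2 CPM, against 8.20 and 15.7 CPM), while its Mki67 (65.4 CPM) was below that of replicate 2 (85.4 CPM).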
